A study of Mus musculus with 6 samples.

Results

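Predicted mouse loci that carry only a provisional name, Gm and a number, were examined in neural progenitor cells (NPCs) with and without *Armc5*. A locus was taken when its row of the count table named a single symbol of this form and reached at least 1 CPM (the usual scale for library size, here over all counts in the library) in at least 3 of the 6 libraries. Of 59699 loci in the table, 26043 carried a single Gm symbol and 1454 of these met the level rule, beside 16475 loci of any name that met it. The level rule used the same counts as the comparisons, so the presence of these loci in NPCs is how they were chosen and not a result. Of the 1454 loci, 1035 reached 1 CPM in all 6 libraries, 167 in 5, 117 in 4 and 135 in 3. Just outside the rule stood *Gm10253*, whose third-highest library was at 0.999 CPM, and just inside it *Gm14269*, at 1.00 CPM. They carried 1453 symbols, since *Gm36638* named 2 neighbouring loci on chromosome 13.

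Most names of this kind stand for sequences that no experiment has yet given a function. A processed pseudogene is a spliced messenger RNA that was copied back into the genome, and it keeps the exons of its source gene with few changes, so a short sequencing read often matches both. A TEC locus is a transcript model that rests on RNA evidence alone and awaits experimental proof, and it often lies within an intron of a known gene. Long noncoding RNAs (lncRNAs) are transcripts with no evident protein. Inbred and outbred mouse strains differ in which pseudogene copies they carry, and a chromosome stretch from the strain in which a gene was deleted travels with the deletion when mice are crossed.

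The NPCs were neurosphere cultures at passage 2 from E13.5 embryos, kept in epidermal growth factor (20 ng/ml), with 3 cultures lacking *Armc5* in the germline (KO, *Armc5*-/-) and 3 wild-type (WT) cultures. The labels name the ganglionic eminences as the source. The sample labels give the strain as 129 sv X CD1 for both genotypes and the study's methods give CD1 x C57BL/6 F1, so a difference of strain between KO and WT embryos cannot be told apart from a difference of genotype. Total RNA depleted of rRNA was sequenced, and total counts per library lay between 55722527 (KO NPC 3) and 86554006 (KO NPC 1). Predicted loci accounted for 2.22% to 2.62% of them. The sources used here do not say whether each culture came from 1 embryo, so p values measure only the spread between these libraries.

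Some libraries stood apart before any locus was compared. *Armc5*, at 29.3, 28.4 and 26.0 CPM in WT NPC 1, 2 and 3, was at 0.970, 1.58 and 0.772 CPM in KO NPC 1, 2 and 3, as its labels say. KO NPC 3 held the lowest summed level of 12 neural progenitor markers, at 3886 CPM against 5451 to 5906 CPM in the other 5 libraries, and the highest of 6 oligodendrocyte lineage markers, at 2345 CPM against 239 to 1049 CPM. All 12 progenitor markers were at 1 CPM or more in every library. *Egfr*, *Fabp7*, *Vim*, *Nes* and *Hes1* were lowest in KO NPC 3, *Nes* at 80.3 CPM against 342 to 468 CPM, while the locus that holds *Sox2* (859 against 515 to 602 CPM) and *Pax6* (56.5 against 37.7 to 45.6 CPM) were highest there. Astrocyte markers summed to 2382 CPM in KO NPC 3 against 1056 to 1409 CPM elsewhere, and endothelial and mural markers to 78.2 CPM against 3.30 to 5.66 CPM. Of 4 ganglionic eminence homeobox genes only *Nkx2-1* was at 1 CPM or more in every library. All 4 were highest in KO NPC 3, and their summed level ran from 2.80 CPM in WT NPC 1 to 133 CPM in KO NPC 3. Microglia, haemoglobin and fibroblast markers summed to 5.94 CPM or less in every library. The Y-linked genes *Ddx3y*, *Uty*, *Kdm5d* and *Eif2s3y* were at 28.6 to 52.6 CPM in KO NPC 2 and at 0.0434 CPM or less in the other 5 libraries, and the locus that holds *Xist* was at 0.678 CPM in KO NPC 2 against 1358 to 3023 CPM elsewhere. Deviations from the genotype means correlated between libraries of the same number, at 0.413, 0.169 and 0.195 for numbers 1, 2 and 3. Other pairs were at 0.0579 or less, a contrast partly built in because the deviations cancel within a genotype.

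Of the loci that separated the genotypes, *Gm6311* and *Gm10320* are near-copies of coding genes whose own levels overlapped between the genotypes, so 2 sets of sequences are shown first. Each stretch of 120 bases is from the GENCODE M21 transcripts on GRCm38, in the direction of transcription and within the coding sequence of the named gene. It was chosen as the window with the most differing positions, and capitals mark the positions where the copies and the coding gene are not all the same. The first set compares *Rps2*, a protein of the small ribosomal subunit, at chr17:24720317-24720436 on the plus strand, with *Gm6311* at chr13:75954177-75954296 on the plus strand and *Gm6139* at chr5:129623711-129623830 on the minus strand. *Gm6311* differed from *Rps2* at 4 of the 5 positions in capitals and *Gm6139* at 2.
Rps2: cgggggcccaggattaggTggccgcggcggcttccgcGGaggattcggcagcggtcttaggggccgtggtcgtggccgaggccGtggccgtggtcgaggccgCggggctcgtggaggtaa
Gm6311: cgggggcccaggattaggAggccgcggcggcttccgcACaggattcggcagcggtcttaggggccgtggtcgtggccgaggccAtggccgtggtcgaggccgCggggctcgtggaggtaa
Gm6139: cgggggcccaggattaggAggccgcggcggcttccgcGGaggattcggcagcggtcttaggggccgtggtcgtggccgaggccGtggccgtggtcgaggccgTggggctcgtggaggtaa

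The second set compares *Sec61b*, a subunit of the channel that moves new proteins into the endoplasmic reticulum, over 2 exons between positions chr4:47480158-47483019 on the plus strand, with *Gm10320* at chr13:98489576-98489695 on the minus strand. They differed at 2 positions of this window.
Sec61b: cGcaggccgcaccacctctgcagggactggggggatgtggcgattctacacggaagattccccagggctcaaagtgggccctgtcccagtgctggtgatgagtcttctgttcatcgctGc
Gm10320: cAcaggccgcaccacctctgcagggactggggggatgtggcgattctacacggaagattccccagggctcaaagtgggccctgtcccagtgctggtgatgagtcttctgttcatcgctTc

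*Gm10167* was high in the KO NPCs and low in the WT NPCs. It is a processed pseudogene without introns on chromosome 5 from 148182899 to 148184377, on the minus strand and opposite to the coding gene *Mtus2*. Its level was 22.7, 21.1 and 16.2 CPM in KO NPC 1, 2 and 3 and 0.878, 1.56 and 1.25 CPM in WT NPC 1, 2 and 3. The genotypes did not overlap, and the lowest KO library was 10.4 times the highest WT library. The mean was 20.0 ± 3.36 CPM (SD, n = 3) in KO and 1.23 ± 0.340 CPM (SD, n = 3) in WT, a 16.3-fold difference of means.

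*Gm6311* had the opposite pattern and was high in the WT NPCs. This processed pseudogene on chromosome 13 from 75954136 to 75955013, on the plus strand and outside named coding genes, was at 4.90, 2.92 and 1.63 CPM in KO NPC 1, 2 and 3 and at 34.7, 31.3 and 36.0 CPM in WT NPC 1, 2 and 3. The lowest WT library was 6.395 times the highest KO library, and the WT mean of 34.002 ± 2.401 CPM (SD, n = 3) was 10.8-fold the KO mean of 3.15 ± 1.64 CPM (SD, n = 3). It was 98.9% identical to *Rps2* over its whole length and 99.2% identical to *Rps2-ps10*, another copy. The locus that holds *Rps2* and a small nucleolar RNA was at 387, 455 and 226 CPM in KO and at 396, 410 and 524 CPM in WT, and these ranges overlapped. Summed over the 16 predicted loci nearest to *Rps2*, the level was 163, 157 and 83.0 CPM in the KO libraries and 183, 194 and 207 CPM in the WT libraries. This sum includes *Gm6311* itself, so its separation by genotype is not a result about the other copies.

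*Gm10320*, on chromosome 13 from 98489348 to 98492001 on the minus strand, carries a protein-coding label in the reference and was 98.3% identical to *Sec61b* over 89.8% of its length. It was at 0.485, 0.465 and 0.287 CPM in KO NPC 1, 2 and 3 and at 3.9003, 2.11 and 4.46 CPM in WT NPC 1, 2 and 3. The genotypes were 4.34 times apart at their nearest libraries. *Gm10320* met the level rule only through the WT libraries, so it had to differ, and its difference is given as a description. It was 1 of 6 such loci, 3 taken through KO and 3 through WT, and the other five, *Gm11224*, *Gm12928*, *Gm35013*, *Gm43482* and *Gm7278*, lay between 0.564 and 1.99 CPM in all libraries. *Sec61b* itself was at 27.8, 27.9 and 13.7 CPM in KO and at 25.4, 27.0 and 23.1 CPM in WT.

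**Figure D1:**
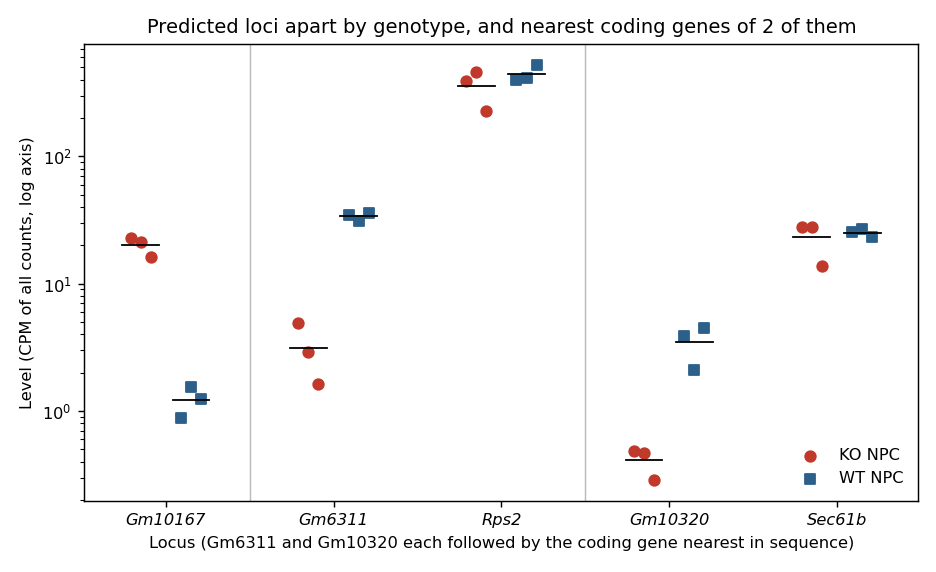
Levels in CPM of all counts (log axis) of the 3 predicted loci whose genotypes were at least 4 times apart, *Gm6311* and *Gm10320* each beside the coding gene nearest in sequence, with 1 point per library (circles KO NPC, squares WT NPC) and a line at each mean of 3. The points of *Gm10167*, *Gm6311* and *Gm10320* fall into separate ranges by genotype, with *Gm10167* at 16.2 to 22.7 CPM in KO and 0.878 to 1.56 CPM in WT, while those of *Rps2* and *Sec61b* overlap between the genotypes.

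These were the only loci among the 1454 whose genotypes were at least 4 times apart, 1 higher in KO and 2 higher in WT. Over all 16475 loci that met the level rule, 0.0546% were apart to this degree with KO higher and 0.0303% with WT higher, 9 and 5 loci. Without requiring a margin, 50 predicted loci had all KO libraries above all WT libraries and 35 the reverse, or 5.85% of them beside 5.2% of all loci. At a margin of 2 times the counts of predicted loci were again 1 and 2, beside 19 and 8 of all loci (0.164%).

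In edgeR's quasi-likelihood test over 19073 genes, 0 of the 1454 predicted loci passed an adjusted p under 0.05, as did 0% of all genes. At an unadjusted p under 0.05 the test called 14 of them, 9 higher and 5 lower in KO, or 0.963% beside 1.61% of all genes. With the replicate number as a block it called 25, and no share over all genes is given for that fit. By the likelihood ratio test in edgeR 3 passed, which were *Gm10167*, *Gm6311* and *Gm10320*, beside 0.0891% of all genes, and DESeq2 called these and *Gm22973*, beside 0.189% of all genes with an adjusted p. *Gm10320* passed the level rule through its WT libraries alone, so its calls are not counted as support. *Gm10167* and *Gm6311* were named beforehand for their difference in these data, so their calls are likewise a description and not support. *Gm10167* changed, KO against WT on the log2 scale, by 3.99 (standard error 0.33), with an adjusted p of 0.0864 by the quasi-likelihood test and 8.28e-16 by the likelihood ratio test. The values of *Gm6311* were -3.45 (standard error 0.45), an adjusted p of 0.573 by the quasi-likelihood test and 7.44e-08 by the likelihood ratio test. Under the replicate block, adjusted p values for *Gm10167* and *Gm6311* were 6.43e-15 and 1.82e-09 by the likelihood ratio test and 0.612 and 0.968 by the quasi-likelihood test. *Gm45140* could not be measured alone, because its locus is merged with *Isy1* and *Rab43*.

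No named coding gene beside these loci or overlapping *Gm10167* had an unadjusted p under 0.05 in the quasi-likelihood test. *Mtus2*, which overlaps *Gm10167* on the other strand, was at 0.820, 0.983 and 1.45 CPM in KO and at 0.774, 0.457 and 1.58 CPM in WT. *Slc46a3*, 288 kb from *Gm10167*, was at 4.10, 2.98 and 4.16 CPM in KO and at 4.06, 3.13 and 2.19 CPM in WT. *Rhobtb3*, only 10.2 kb from *Gm6311*, changed by 0.17 on the log2 scale (standard error 0.15), and *Ttc37* on its other side by -0.10 (standard error 0.20). On the 2 sides of *Gm10320*, *Fcho2* at 231 kb changed by 0.15 (standard error 0.15) and *Foxd1* at 130 kb by -0.63 (standard error 0.71), both on the log2 scale. Within 5 Mb of *Gm10167*, *Gm6311* and *Gm10320* there were 6, 3 and 13 further predicted loci, of which 0 passed an unadjusted p under 0.05 by the quasi-likelihood test, and 0 of the 79, 45 and 73 other loci of any kind were 4 times apart by genotype. *Gm6311* and *Gm10320* lie on the same chromosome. Of the 75 predicted loci on chromosome 13, 1 had all KO libraries above all WT libraries and 6 the reverse, or 9.33% beside 6.41% of all loci of that chromosome. The 6 include *Gm6311* and *Gm10320*, for which this chromosome was looked at, so the share is a description and not separate support.

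Chromosome 7, where *Armc5* lies, was examined for loci that could have travelled with the deletion. Within 20 Mb of *Armc5* there were 34 predicted loci, 22 at lower and 12 at higher coordinates. None of the 34 passed an adjusted p under 0.05 by the quasi-likelihood test, and 0 had an unadjusted p under 0.05, whereas 12 of the 430 genes of any name in the window did, among them *Armc5*. None of the 34 was called by the likelihood ratio test or by DESeq2 either. All KO libraries were above all WT libraries at 5 of the 34 and the reverse held at 0, or 14.7%, beside 9.01% of the 355 loci of any name there that met the level rule and 5.2% of all loci. These 5 were the TEC loci *Gm45084*, *Gm44550*, *Gm44901* and *Gm45205*, each highest in KO NPC 3, and the lncRNA *Gm44763*. Their log2 fold changes were 0.87, 0.95, 0.90, 0.63 and 0.44, and 0.37, 0.37, 0.24, 0.19 and 0.55 without KO NPC 3. Over all 34 predicted loci of the window, log2 fold changes ran from -0.45 to 0.95 with a median of 0.01. Beside *Armc5* itself, 2 genes at its ends were low in KO. The first overlaps the lower end of *Armc5* on the opposite strand, and the second lies beyond its higher end on the same strand. *9130023H24Rik* was at 0.0809, 0.292 and 0.144 CPM in KO and at 18.8, 14.3 and 16.8 CPM in WT, and *Tgfb1i1* at 0.358, 0.850 and 0.233 CPM in KO and at 19.1, 20.9 and 12.2 CPM in WT. The nearest predicted locus on the lower side was *Gm9299*, a processed pseudogene 99.8% identical to *Armcx3*, 195 kb from *Armc5*, at 15.1, 16.3 and 10.3 CPM in KO and at 15.2, 16.5 and 12.6 CPM in WT. Next came the TEC locus *Gm45205*, the lncRNA *Gm39090* (-0.05), the TEC *Gm45110* (0.04) and the lncRNA *Gm9967* (-0.04). On the higher side *Gm44673*, 476 kb away, was at 1.13, 0.877 and 1.06 CPM in KO and at 1.01, 0.980 and 0.984 CPM in WT. It was followed by *Gm5903* (log2 fold change -0.04), *Gm16477* (-0.19), *Gm45501* (0.62, and -0.18 without KO NPC 3) and *Gm15483* (-0.15).

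Other loci were on in some libraries and off in others without following the genotype, by a rule unlike the margin between genotypes. By the rule of at least 1 CPM in 1 library and under 0.1 CPM in another, 12 predicted loci qualified, or 0.825%, beside 0.589% of all loci that met the level rule. Of these 12, 9 were off in KO NPC 3, and 1 each in KO NPC 1, KO NPC 2 and WT NPC 3. Without KO NPC 3, a setting chosen after the values were seen, 3 qualified. The KO NPC 3 pattern was plain in *Gm6161*, a copy 99.5% identical to *Hnrnpa3*, which had 0 counts there and 2.32 to 2.69 CPM in the other 5 libraries, where 0 counts allows up to 0.0538 CPM. *Gm15428*, a copy of *Pclaf* (99.0% identical), whose product binds the replication clamp, had 2 counts there and between 1.995 and 2.935 CPM elsewhere. *Gm8416*, a copy of the mitotic cyclin gene *Ccnb1* (97.3% identical), had 1 count there and 1.37 to 1.81 CPM elsewhere. *Gm47148*, a TEC locus, had 0 counts there and 1.13 to 1.88 CPM elsewhere, and *Gm6356*, a protein-coding label on chromosome 14, had 0 counts there and 0.492 to 3.36 CPM elsewhere.

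A pair of neighbours on chromosome 4 were off together. *Gm12503*, a lncRNA from 44087232 to 44109776, was at 0.404, 6.72 and 0.0538 CPM in KO NPC 1, 2 and 3 and at 3.74, 5.40 and 11.02 CPM in WT NPC 1, 2 and 3. *Gm12504*, a transcribed pseudogene that starts at 44121893 on the same strand, was at 0.277, 2.82 and 0.0359 CPM and at 1.21, 1.09 and 4.36 CPM in the same order. In both, KO NPC 1 and KO NPC 3 were below every other library. Outside KO NPC 3, *Gm16499*, a lncRNA on chromosome 6, had 1 count in WT NPC 3 and 1.16 to 4.76 CPM in the other 5 libraries. *Gm9077*, an unprocessed pseudogene on chromosome 12, had 0 counts in KO NPC 2, which allows up to 0.0399 CPM, and 0.716 to 1.60 CPM elsewhere. *Gm21370* on chromosome 13 was low in 2 libraries of different genotype, at 0.0924 CPM in KO NPC 1 and 0.217 CPM in WT NPC 3 against 2.80 to 3.64 CPM in the other 4. *Ctdsp1*, the coding gene nearest to *Gm21370* in sequence (92.0% identical), stayed between 115 and 132 CPM in all 6.

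A wider description, chosen after the values were seen, sorted each locus by its 6 levels and took the widest ratio between neighbours in that order, with levels under 3 counts set to 3 counts. This step was at least 4 times in 185 predicted loci, or 12.7%, beside 9.75% of all loci that met the level rule. The share was 6.52% at loci that name a single other gene and 25.3% at loci that name none. In 115 of the 185 KO NPC 3 alone was above the step and in 36 it alone was below. Among the 5 libraries other than KO NPC 3, 41 predicted loci had such a step, or 2.82% beside 1.84% of all loci, 1.19% of the 10757 loci that name a single other gene and 4.15% of the 2411 that name none. Processed pseudogenes made up 25 of the 41, 4.37% of that class, and TEC loci 2, or 0.443% of theirs. Names in the following paragraphs that are not called by a test, nearest to *Armc5*, among the most abundant or in the list of on and off loci were also chosen after their values were seen.

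**Figure D2:**
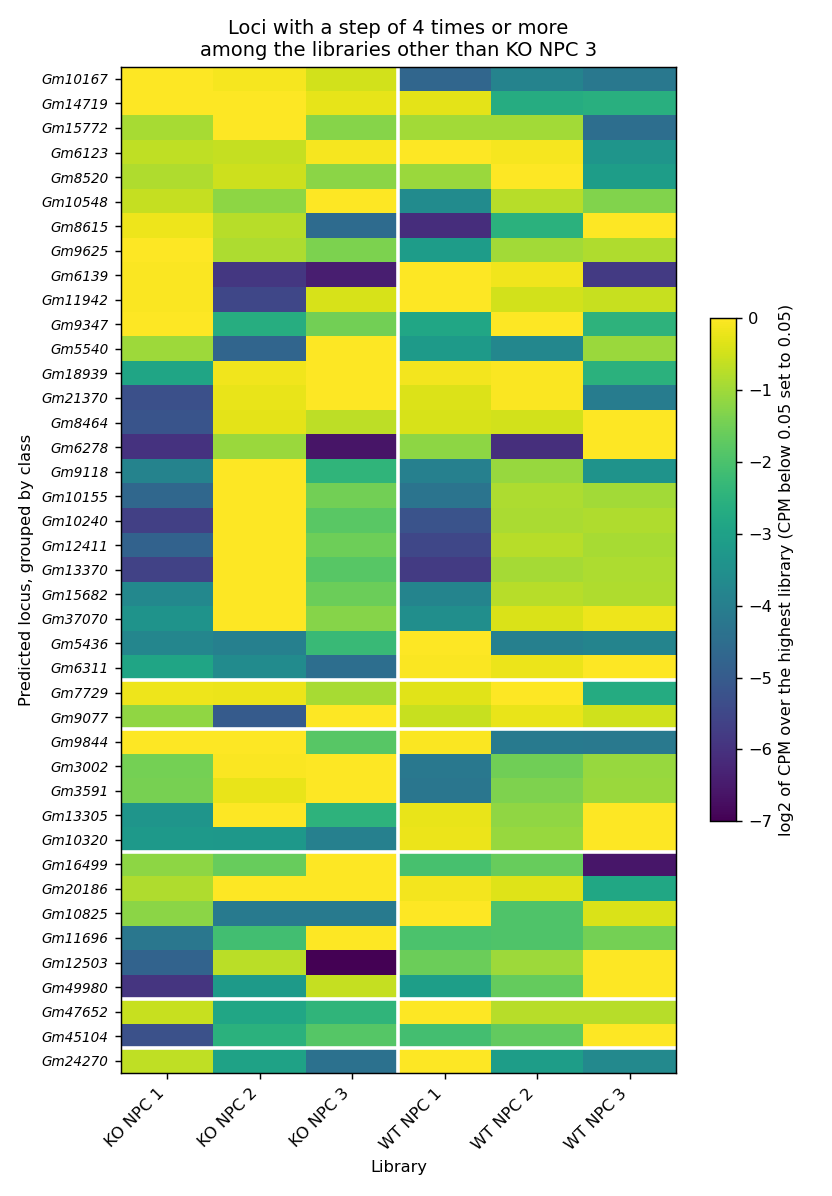
Levels of the 41 predicted loci with a step of at least 4 times among the libraries other than KO NPC 3 (rows, grouped by class from processed pseudogenes at the top, then other pseudogenes, protein-coding labels, lncRNAs, TEC loci and a small RNA) in the 6 libraries (columns), coloured by log2 of the CPM over that of the highest library. *Gm10167*, *Gm6311* and *Gm10320* follow the genotypes, while 6 copies of *Rpl21* are dark in both libraries of number 1.

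Several of these loci were high or low in a mix of KO and WT libraries. *Gm6139*, the second *Rps2* copy shown above, was at 28.7, 0.505 and 0.341 CPM in KO NPC 1, 2 and 3 and at 29.3, 26.6 and 0.521 CPM in WT NPC 1, 2 and 3. It was thus high in 1 KO and 2 WT libraries, a step of 51.0 times, and its order of libraries was not that of *Gm6311*. *Gm6278*, a copy of the ribosomal stalk gene *Rplp0* on chromosome 16 (96.4% identical over 86.8% of its length), was at 0.739, 22.7 and 0.485 CPM in KO and at 20.4, 0.698 and 46.8 CPM in WT. *Gm11942*, near-identical to the stalk gene *Rplp1* (97.4%), was low in a single library, with 1.28 CPM in KO NPC 2 and 38.3 to 57.7 CPM in the other 5. *Gm8615* on chromosome 5, a copy of *Gnpda1* (99.1%), which encodes an enzyme of glucosamine metabolism, was at 36.9, 24.7 and 1.76 CPM in KO and at 0.610, 7.26 and 41.6 CPM in WT. *Gnpda1* stayed between 14.0 and 29.04 CPM.

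*Gm9844* and *Gm14719* shared a pattern on different chromosomes. *Gm9844*, on chromosome 7 and 99.1% identical to the thymosin gene *Tmsb10*, was at 54.2, 53.6 and 15.4 CPM in KO and at 52.6, 3.10 and 2.997 CPM in WT. *Gm14719*, on the X chromosome and 97.7% identical to *Ppdpf*, was at 4.26, 4.32 and 3.59 CPM in KO and at 3.56, 0.685 and 0.724 CPM in WT. Both were high in all KO libraries and in WT NPC 1, and without that library both were at least 4 times apart by genotype. *Ppdpf* was at 38.1 to 43.0 CPM in all libraries, and *Tmsb10* was at 206 CPM in KO NPC 3 and 759 to 824 CPM in the others. *Gm8464*, on the X chromosome, was at 0.104 CPM in KO NPC 1 and at 2.33 to 3.79 CPM elsewhere, and *Gm5436*, a copy of the ATP synthase subunit gene *Atp5o* (97.05%), was at 20.4 CPM in WT NPC 1 and at 1.32 to 4.29 CPM elsewhere.

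In some copies the level of the source gene moved against that of the copy. *Gm15772* and *Rpl26*, a protein of the large ribosomal subunit, differed at 2 positions in 438 bases, and both fall in the stretch below, at chr5:3236603-3236722 for *Gm15772* and at chr11:68903183-68903302 for *Rpl26*, both on the plus strand.
Rpl26: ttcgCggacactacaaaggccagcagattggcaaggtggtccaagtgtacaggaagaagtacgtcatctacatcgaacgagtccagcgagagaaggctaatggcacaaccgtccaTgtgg
Gm15772: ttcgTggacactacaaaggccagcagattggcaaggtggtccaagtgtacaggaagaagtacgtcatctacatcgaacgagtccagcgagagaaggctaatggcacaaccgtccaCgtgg

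*Gm15772* was at 106, 200 and 83.0 CPM in KO NPC 1, 2 and 3 and at 101, 103 and 9.09 CPM in WT NPC 1, 2 and 3, a range of 22.0 times. *Rpl26* was at 129, 69.2 and 114 CPM in KO and at 125, 124 and 187 CPM in WT, so it was lowest where *Gm15772* was highest and highest where *Gm15772* was lowest. The sum of both lay between 196 and 270 CPM, a range of 1.38 times. Reads from 2 such sequences cannot be told apart over most of their length.

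The same was seen for *Rpl21*, another protein of the large subunit. *Gm13370* on chromosome 2 and *Gm10240* on chromosome 15 are identical to each other over 483 bases and differ from *Rpl21* at 2 positions. The stretch holding both is at chr2:24986307-24986426 and chr15:68310142-68310261, and in *Rpl21* over 2 exons between positions chr5:146835645-146835913, all on the plus strand.
Rpl21: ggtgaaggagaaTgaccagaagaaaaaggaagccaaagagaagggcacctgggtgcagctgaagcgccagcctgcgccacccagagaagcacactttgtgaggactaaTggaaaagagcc
Gm13370: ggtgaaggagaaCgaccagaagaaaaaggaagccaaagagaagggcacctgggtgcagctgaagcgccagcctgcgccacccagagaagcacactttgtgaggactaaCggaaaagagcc
Gm10240: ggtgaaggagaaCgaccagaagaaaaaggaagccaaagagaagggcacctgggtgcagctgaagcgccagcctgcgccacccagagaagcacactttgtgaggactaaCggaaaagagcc

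*Gm13370* was at 0.578, 28.5 and 8.11 CPM in KO NPC 1, 2 and 3 and at 0.521, 14.8 and 15.7 CPM in WT NPC 1, 2 and 3. *Gm10240* followed it, at 0.531, 27.2 and 7.82 CPM and at 0.729, 14.6 and 15.1 CPM. Of the 11 predicted loci whose nearest coding gene was *Rpl21*, 9 had both libraries of number 1 below the other 4. These 9 were on chromosomes 1, 2, 4, 5, 7, 9, 11, 15 and X, 1 on each. Summed, the 11 loci were at 10.4, 111 and 35.7 CPM in KO and at 11.9, 62.5 and 66.0 CPM in WT, while the locus that holds *Rpl21* was at 273, 170 and 109 CPM in KO and at 277, 217 and 223 CPM in WT. Copies and source together came to 280 to 289 CPM in 5 libraries and 144 CPM in KO NPC 3. The share of this total counted at the copies was 3.67% and 4.10% in KO NPC 1 and WT NPC 1 and 22.3% to 39.5% in the other 4 libraries.

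**Figure D3:**
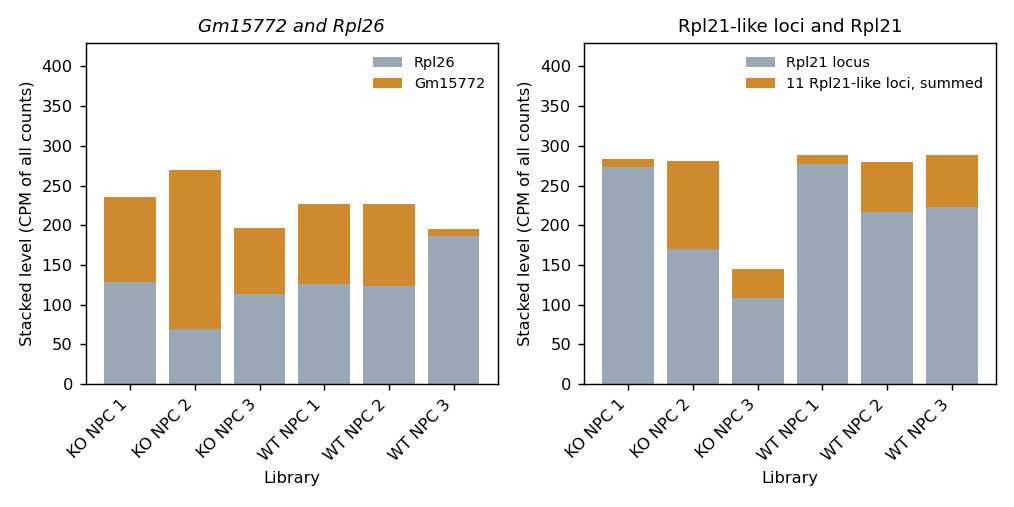
Stacked levels in CPM of all counts, by library, of *Rpl26* (grey) with *Gm15772* (orange) on the left, and of the locus that holds *Rpl21* (grey) with the 11 predicted loci nearest to it (orange, summed) on the right. The orange parts vary from 9.09 to 200 CPM and from 10.4 to 111 CPM, and the stacked height varies less, from 196 to 270 CPM and from 144 to 289 CPM.

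At a margin of 2 times, more predicted loci separated the libraries of 1 number from the rest than separated the genotypes, although 2 libraries against 4 and 3 against 3 are not the same comparison and the difference was not tested. Both libraries of number 1 stood apart from the other 4 at 17 predicted loci, 5 high and 12 low, or 1.17% beside 1.58% of all loci. For number 2 there were 8, 2 high and 6 low, or 0.550% beside 0.37%, and for number 3 there were 5, all high, or 0.344% beside 0.71%. By genotype there were 3, or 0.206% beside 0.164%. At a margin of 4 times there were 7 for number 1, 1 high and 6 low, or 0.481% beside 0.486% of all loci. All 6 low loci were copies of *Rpl21*, and such copies were also among the 12 low at 2 times, so 1 family was counted repeatedly. There were 0 for number 2 and 0 for number 3, beside 0.0182% and 0.115% of all loci. By genotype there were 3, or 0.206% beside 0.0850%. Among the 5 high in number 1 were *Gm23935*, *Gm24270* and *Gm25911*, which carry a microRNA label and share sequence (96.5% or more identical). *Gm24270* was at 66.3, 13.4 and 4.97 CPM in KO and at 105, 12.1 and 7.98 CPM in WT. *Gm16010*, an antisense lncRNA on chromosome 9, was at 9.17, 0.385 and 0.467 CPM in KO and at 17.8, 1.53 and 3.43 CPM in WT. *Gm9118*, a copy of the nucleolar protein gene *Npm1* (97.3%), was high in number 2, at 12.1 CPM in KO NPC 2 and 5.68 CPM in WT NPC 2 against 0.789 to 2.26 CPM elsewhere.

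TEC loci were high and processed pseudogenes low in KO NPC 3. Of the 1454 loci, 572 were processed pseudogenes, 451 TEC loci, 253 lncRNAs, 105 carried a protein-coding label, 50 were small RNAs and 23 were other pseudogenes. In KO NPC 3 the median log2 ratio to the mean of the other 5 libraries was 1.24 for TEC loci, 0.66 for lncRNAs and -0.51 for processed pseudogenes, beside -0.06 for the 10757 loci that name a single other gene. KO NPC 3 was the highest library at 372 TEC loci, or 82.5%, and the lowest at 386 processed pseudogenes, or 67.5%. Processed pseudogenes with other names had a median of -0.54 there (n = 199), so this direction was not particular to the Gm names. Loci that name no gene had a median of 0.88 there (n = 2411), with KO NPC 3 the highest library at 64.8% of them. A rise in KO NPC 3 was thus not particular to predicted TEC and lncRNA loci. These shifts moved with the marker levels of KO NPC 3 given above, and their part in the result was not tested.

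**Figure D4:**
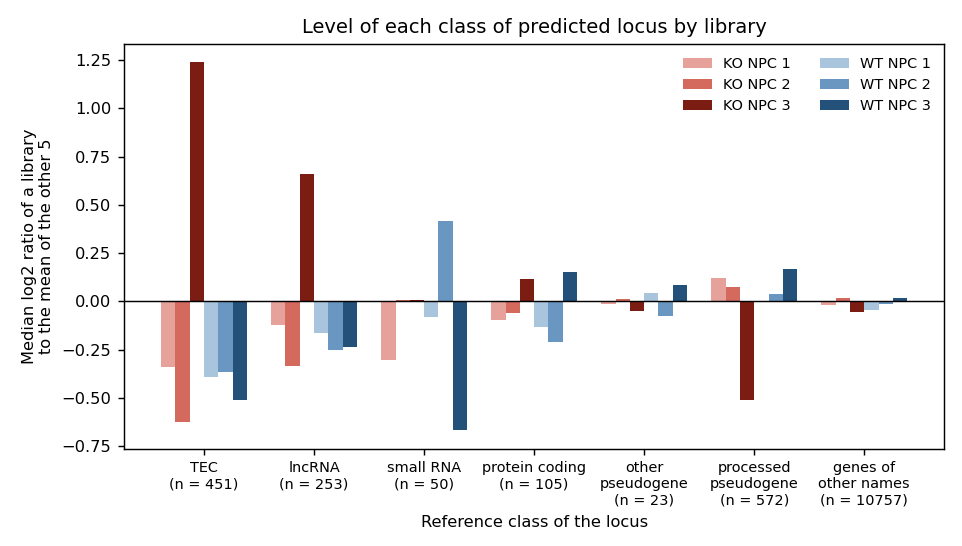
Median log2 ratio of the level in a library to the mean of the other 5 libraries (vertical axis), for 6 classes of predicted locus and for loci that name a single other gene (horizontal axis), with 1 bar per library. The bar of KO NPC 3 is at 1.24 for TEC loci and at -0.51 for processed pseudogenes, and all bars of the other named genes lie between -0.06 and 0.02.

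The genotype medians of the classes rested on KO NPC 3. The median log2 fold change, KO against WT, was 0.47 for TEC loci and 0.23 for lncRNAs, and -0.17 for processed pseudogenes. Of the 451 TEC loci, 385 were above 0, and of the 572 processed pseudogenes, 452 were below 0. Without KO NPC 3 the medians were -0.05, -0.03 and 0.03, so the direction of each turned.

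TEC loci lay mostly inside known genes. Of 451, 362 (80.3%) overlapped a named coding gene on the same strand, against 71 of 572 processed pseudogenes (12.4%). At these 362 loci the median log2 ratio of KO NPC 3 to the other libraries was 1.36, while at the rows of their 281 host genes, counted once per locus, it was 0.08. The TEC locus exceeded its host in this ratio at 349 of the 362, and at 134 the host was below 0 and the TEC locus above it. *Gm21846*, inside *Lhfpl3*, was at 2.98, 11.1 and 175 CPM in KO NPC 1, 2 and 3 and at 6.67, 10.2 and 2.07 CPM in WT NPC 1, 2 and 3, whereas the row that holds *Lhfpl3* was at 81.5, 117 and 243 CPM and at 53.8, 96.9 and 63.4 CPM. *Gm48870*, inside *Dip2c*, was at 1.37, 7.37 and 69.1 CPM in KO and at 1.504, 2.14 and 2.13 CPM in WT, with its host row between 101 and 129 CPM in all libraries. *Gm44433* and *Gm44438*, both inside *Ctnna2*, a catenin gene of neurons, were at 48.5 and 36.3 CPM in KO NPC 3 and at 0.612 to 1.65 CPM in the other 5 libraries, where *Ctnna2* was at 208 CPM in KO NPC 3 and at 13.8 to 32.2 CPM in the others. *Gm43187*, inside *Auts2*, was at 45.1 CPM in KO NPC 3 and at 1.33 to 3.23 CPM elsewhere.

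Processed pseudogenes were mostly near-copies of other annotated genes. Of 572, 500 (87.4%) were at least 95% identical to another annotated gene over at least 90% of their length, and 75 were fully identical to one over that length, against 1 of 451 TEC loci that met the 95% rule. Over all classes, 569 predicted loci had a named coding gene at 90% identity or more over 90% of their length, from 351 coding genes. The largest groups were the 16 loci nearest to *Rps2*, 15 nearest to the glycolytic gene *Gapdh*, 11 nearest to *Rpl21*, and 9 each nearest to *Hmgb1*, *Hnrnpa3* and *Rpl7a*. In KO NPC 3 the 15 *Gapdh* copies summed to 218 CPM against 325 to 585 CPM in the other libraries, as *Gapdh* itself was at 271 CPM against 528 to 796 CPM. The 4 copies of *Hmgb2*, a chromatin protein gene of dividing cells, summed to 3.73 CPM in KO NPC 3 against 23.7 to 38.4 CPM, and *Hmgb2* was at 31.4 CPM there against 233 to 289 CPM. *Gm5596*, a copy of the cell cycle gene *Depdc1a* (99.7%), was at 0.215 CPM in KO NPC 3 and 8.37 to 10.7 CPM elsewhere, and *Depdc1a* at 1.96 CPM and 68.1 to 86.4 CPM. Copy and source moved in the same direction in these examples, and shared reads and shared regulation cannot be told apart here.

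Most of the 10 predicted loci of highest level were near-copies of named genes. *Gm24447* and *Gm26315* match *Rn7sk*, the small nuclear RNA of the 7SK complex, without a difference over 71.3% and 73.2% of their length. *Gm24447* was at 2785, 3689 and 3673 CPM in KO and at 2935, 3957 and 1962 CPM in WT, and *Gm26315* between 1830 and 3696 CPM, with WT NPC 3 lowest for both. *Gm10925*, *Gm28437* and *Gm28438*, on chromosome 1, are 99.7% or more identical to the mitochondrial genes *mt-Atp6*, *mt-Co3* and *mt-Nd3*, and *Gm10925* was at 2640 to 3905 CPM. *Gm15459*, a copy of the chaperone gene *Hspa8* (99.7%), was at 637, 671 and 334 CPM in KO and at 606, 620 and 625 CPM in WT. *Gm8730*, a copy of *Rplp0* (98.7%), was at 358, 171 and 189 CPM in KO and at 112, 170 and 279 CPM in WT, with the genotypes overlapping. The others of the 10 highest were *Gm13456* (118 to 197 CPM), a copy of the elongation factor gene *Eef1a1*, *Gm12184* (106 to 207 CPM), a copy of *Cdk2ap1*, and *Gm23935* (49.4 to 384 CPM). None of the 10 had an unadjusted p under 0.05 in the quasi-likelihood test.

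Small RNA labels held 5 of the 14 loci at an unadjusted p under 0.05, all higher in KO. *Gm22973*, labelled a small nuclear RNA, on chromosome 12 from 59040335 to 59040525, was at 21.7, 27.8 and 28.2 CPM in KO NPC 1, 2 and 3 and at 10.004, 11.3 and 6.37 CPM in WT NPC 1, 2 and 3, and the genotypes did not overlap. Its log2 fold change was 1.44 (standard error 0.27), with an adjusted p of 0.983 by the quasi-likelihood test, 0.0748 by the likelihood ratio test and 0.00291 by DESeq2. *Gm22614*, *Gm24830* and *Gm25890* on chromosome 3 and *Gm23143* on chromosome 4 had log2 fold changes of 1.38, 1.22, 1.09 and 1.19, each with an adjusted p of 0.983 by the quasi-likelihood test. Of the other members at this level, *Gm43339* (-0.93), *Gm10243* (-0.87) and *Gm44899* (-1.46) were lower in KO on the log2 scale and *Gm6710* (0.64), *Gm43466* (1.22) and *Gm48870* (3.64) higher, these last at 0.62 and 1.18 without KO NPC 3. Over all 50 small RNA loci the median log2 fold change was -0.16, with 22 above 0. WT NPC 3 was low for this class, with a median log2 ratio of -0.67 to the other libraries. Without WT NPC 3, 1 of the 50 was higher and 9 lower in KO at an unadjusted p under 0.05.

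Repeats and sex chromosomes gave further loci that did not follow the genotype. Of 12 listed satellite-like loci 8 were members, all at the start of chromosome 9, and summed they were at 104, 99.6 and 208 CPM in KO and at 85.8, 89.4 and 211 CPM in WT, high in both libraries of number 3. *Gm21738* on chromosome 14, 94.9% identical to *Gm10719* of that list, was at 95.6, 78.2 and 262 CPM in KO and at 49.2, 78.5 and 205 CPM in WT. None of the 3 listed rRNA-like loci stood alone in the table, and 3 of the 9 listed mitochondria-like loci did. The only predicted locus on the Y chromosome, *Gm20775*, was at 9.04 to 11.7 CPM in all 6 libraries, although 5 of them had Y-linked genes at or near 0. It is 99.7% identical to *Rmi1*, an autosomal gene, over its whole length.

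By chromosome, predicted loci were most numerous on chromosome 1, with 163, chromosomes 3 and 5, with 140 each, and chromosome 7, with 119. They made up 15.2%, 15.6%, 13.2% and 10.03% of the loci that met the level rule there, and 4.12% on chromosome 11 and 3.09% on chromosome 19. TEC loci were unevenly spread, with 86 on chromosome 1, 72 on chromosome 5, 56 on chromosome 3 and 51 on chromosome 7 but 2 on chromosome 4 and 0 on chromosomes 11, X and Y. Processed pseudogenes were spread more evenly, with 52 on chromosome 4, 51 on chromosome 2 and 31 on the X chromosome. Of the 41 loci with a step of at least 4 times outside KO NPC 3, 5 were on chromosome 5, 4 each on chromosomes 4, 7 and 13, and 0 on chromosomes 8, 17, 19 and Y. Whether a strain carries fewer or more of these copies was not tested, since the table holds no sequence reads.

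**Figure D5:**
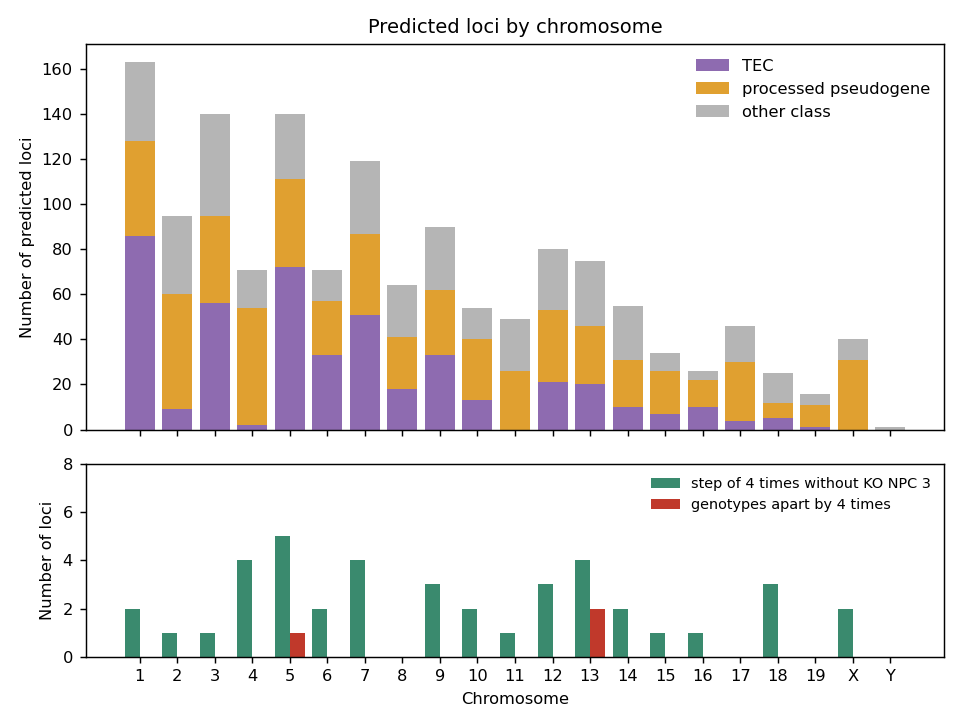
Number of predicted loci by chromosome, stacked by class (top), and number of loci with a step of at least 4 times among the libraries other than KO NPC 3 or with genotypes at least 4 times apart (bottom). Chromosome 1 has the most loci, 163, of which 86 are TEC loci, and the 3 loci apart by genotype are on chromosome 5 (1) and chromosome 13 (2).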

How the data were processed

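Per the labels, the authors sequenced directional paired-end libraries of total RNA without rRNA and worked on GRCm38. Their notes list edgeR, Picard, STAR, StringTie and Trimmomatic. Versions, the counting step, its strand setting and the treatment of reads with several matches are not given in the sources used here. The deposited values used are whole-number counts per locus and library, and the locus length. The deposited log2 values (per library and as the authors' group means, with and without scaling to Rn7sk) were not used.

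Levels are counts over the library total of all loci, in CPM. For tests, loci naming a gene were summed per gene identifier, filtered (filterByExpr, minimum count 10, minimum total 15, which all predicted loci passed), scaled by TMM and fitted with the quasi-likelihood test of edgeR 4.0.16, without a replicate block, with Benjamini-Hochberg adjustment over all genes and a threshold of 0.05. Settings tried were the likelihood ratio test, DESeq2 1.42.0 (R 4.3.3), Rn7sk or total scaling, no filter, the replicate block and leaving out each library. On simulated counts (18498 genes) the quasi-likelihood test recovered 33.6% of the genes changed by 2 and 73.3% of those changed by 4 on the log2 scale, the likelihood ratio test 60.9% and 94.4%, and DESeq2 68.2% and 88.9%, with 10, 65 and 93 unchanged genes called. Genes changed by 2 numbered 110 and those changed by 4 numbered 90, so the share of false calls was above 0.05 for each test. It was lowest for the quasi-likelihood test. The study calls its comparison paired. Deviations from the genotype means correlated at 0.413, 0.169 and 0.195 for numbers 1, 2 and 3 and at 0.0579 or less for other pairs. Within a genotype the deviations of a gene cancel, so these correlations are not independent and their contrast is partly built in. Classes are GENCODE M21 gene types, matched for all 1454 loci, 1285 of them with identical coordinates. The nearest gene is the best match of the longest transcript by BLAST+ 2.17.0. Named loci were Gm10167, Gm6311, Gm45140 and Gm10320, the 10 of highest mean, those called by a test, those on or off by genotype or library (up to 10 each), the 5 nearest to Armc5 on each side, and neighbours of loci apart by genotype. Limits on a count of 0 are 3 counts and cover counting error only. Members, lists and rules were chosen with earlier results of these data known. The sequence comparison of Gm10167 is not reported here.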

Additional observations from a re-analysis of the deposited data

How the results depend on the processing

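No predicted locus was called by the quasi-likelihood test with total counts only, the replicate block, loci that name no gene included or any 1 library left out, against 1 with Rn7sk scaling (*Gm10167*), 2 without a filter, 3 by the likelihood ratio test with or without the replicate block, and 4 by DESeq2. The counts of 3 and 4 include *Gm10320*, which passed the level rule through its WT libraries alone. All these counts above 0 include *Gm10167*, which like *Gm6311* was named beforehand for its difference in these data, so they are a description. Loci at an unadjusted p under 0.05 numbered 14, and 37 with Rn7sk scaling, 77 without a filter, 56 by the likelihood ratio test, 45 by DESeq2, 25 with the replicate block, 33 with the block and the likelihood ratio test, and 13 (without WT NPC 1) to 89 (without KO NPC 1 or KO NPC 2) with a library left out. The share over all genes at this level was 1.61% in the main fit and is not given for the other settings. Their counts are therefore not read as a result about the predicted loci. *Gm10167* kept its direction in all settings and passed the threshold at a log2 fold change of 3.79 with Rn7sk scaling, 3.97 without a filter, 3.99 by the likelihood ratio test, 4.01 by DESeq2 and 3.999 with the block and the likelihood ratio test. *Gm6311* passed it at -3.46 without a filter, -3.45 by the likelihood ratio test, -3.43 by DESeq2 and -3.60 with the block and the likelihood ratio test. The block changed no other call. Rn7sk scaling moved the median log2 fold change of all genes by -0.25 and that of the predicted loci from 0.03 to -0.21. No predicted locus near Armc5 was called under any setting. Loci at least 4 times apart by genotype numbered 3 to 5 with a library left out, the 5 without WT NPC 1 adding *Gm9844* and *Gm14719*, 1 at a margin of 8 times, and 2 relative to Rn7sk (*Gm10167* and *Gm6311*). Loci on in some libraries and off in others numbered 12, and 34 with off set under 0.2 CPM, 7 with on set at 2 CPM and 3 without KO NPC 3 (chosen after seeing the data). Predicted loci numbered 906 at 2 CPM in at least 3 libraries. Steps of at least 4 times, also chosen then, numbered 185 and, without KO NPC 3, 41. The cause of these moves was not tested. Depth limits the loci near 1 CPM, such as *Gm14269* with 56 to 86 counts a library.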
